A study of Mus musculus with 3 samples.

Results

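Ubiquitin ligases and ligase adaptors that restrain T cell responses were read in the messenger RNA of mouse regulatory T cells (Tregs) that had gone through inflammation. The 10 genes are the HECT ligases Itch and Nedd4, their adaptors Ndfip1 and Ndfip2, the RING ligases Cbl, Cblb, Rnf128 and Peli1, the U-box ligase Stub1, and Vhl, which brings substrates to a cullin ligase. They were chosen by name: a row was taken where its GENCODE M21 gene name was on this list. All 10 were found among the 55536 genes of the gene tables. The cells were primary Tregs of an adult male of 6 months from the strain Foxp3CreERT2 x Rosa26YFP, in which Foxp3 drives an inducible Cre and Rosa26 holds a fluorescent reporter. There is 1 group with 1 biological replicate and 3 technical-replicate libraries of polyadenylated RNA, here called libraries 1, 2 and 3 after their labelled numbers. Untreated or resting cells were not analysed here, so levels within this sample and differences between its libraries are what can be described. The labels name 1 biological replicate and no further animal or culture, so each p-value below measures spread or counting noise among these libraries alone.

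A ubiquitin ligase (E3) takes ubiquitin from a conjugating enzyme (E2) and places it on a chosen protein, which is then degraded, moved or altered in its signalling. In T cells, ligases of the CBL, NEDD4 and GRAIL families limit signalling from the antigen receptor and are known for their part in anergy, the unresponsive state of a T cell that met antigen without costimulation. HECT ligases pass ubiquitin through a cysteine of their own, while RING and U-box ligases hold the E2 beside the substrate. NDFIP adaptors are membrane proteins whose PY motifs bind the WW domains of NEDD4-family ligases and activate them.

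Gene totals were 10667765 to 14136139 estimated counts per library. All 8 genes of a Treg marker list were detected, which here means 1 TPM (a transcript level adjusted for length and library total) or more in all 3 libraries. Foxp3, which defines the lineage, stood at 17.96, 14.25 and 16.01 TPM in libraries 1, 2 and 3. RNA of other cells was present too and was not even between the libraries. The summed level of 5 macrophage and monocyte markers was 11.8, 58.2 and 23.1 CPM (counts scaled to library size, with no length adjustment) in libraries 1, 2 and 3, that of 6 CD8 T cell and NK cell markers 21.5, 65.6 and 33.9, and that of 7 B and plasma cell markers 508, 620 and 734. In RNA from a bulk sample, fewer cells of a type and less RNA per cell cannot be told apart.

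Of the 10 genes, 9 were detected, and the exception was Rnf128. Over all protein-coding genes 46% were detected, 10131 of 22028. The 10 genes together held 672, 709 and 691 TPM in libraries 1, 2 and 3, and Ndfip1 alone made up 65.7% of the summed mean. The order by mean TPM ran Ndfip1, Stub1, Itch, Peli1, Ndfip2, Cblb, Cbl, Vhl, Nedd4 and Rnf128, over a 434-fold range. The plot of levels shows the gap below Ndfip1, a close group from Stub1 to Cblb, and a lower tail. Of the 10, 6 lay above the median of detected protein-coding genes, which was 19.4 TPM. Neighbours in that order differed in the same direction in every library and by more than the SD of the difference, with 2 exceptions. Peli1 and Ndfip2 changed order between libraries, with a log2(TPM + 0.1) difference of 0.05 ± 0.49 (SD, n = 3). Ndfip2 exceeded Cblb by 0.23 ± 0.25 on that scale, which is within its spread. On this scale the gap to a low gene is compressed by the pseudocount of 0.1.

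**Figure D1:**
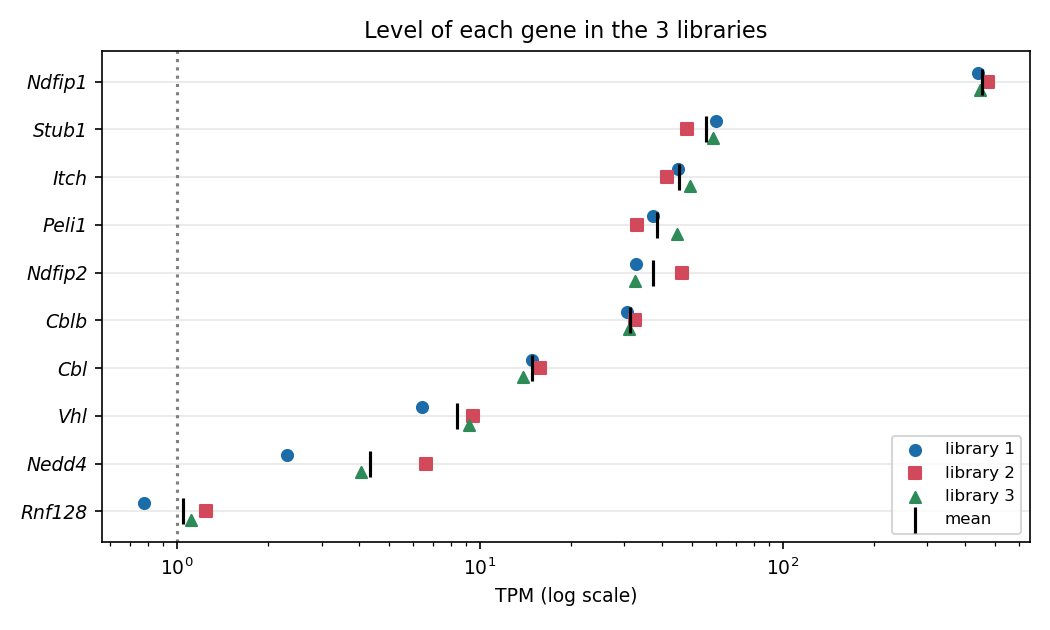
Level of each of the 10 genes in TPM on a log axis, with 1 symbol per library and a vertical tick at the mean of the 3 libraries; the dotted line marks 1 TPM. Ndfip1 stands at 442 to 474 TPM, Stub1, Itch, Peli1, Ndfip2 and Cblb lie between 30.5 and 60.4 TPM, and Nedd4 spreads from 2.30 to 6.62 TPM.

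Ndfip1, the adaptor that activates Itch in T cells, was the most abundant by a wide margin. It is annotated as ENSMUSG00000024425.4 on the plus strand of chromosome 18, 38410396 to 38465303 in mm10. Its level was 442, 474 and 446 TPM in libraries 1, 2 and 3, from 6754, 8745 and 6289 estimated counts, or 454 ± 17.3 TPM (SD, n = 3). That is the 97.4th percentile of detected protein-coding genes.

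Its paralogue Ndfip2 (ENSMUSG00000053253.16, chromosome 14, 105258573 to 105309298, plus strand) was at 32.7, 46.4 and 32.5 TPM, with library 2 above the others, which lay together. Ndfip1 exceeded Ndfip2 by 3.63 ± 0.24 on the log2(TPM + 0.1) scale, a 12.3-fold difference, and was the higher in 3 of 3 libraries (exact two-sided sign-flip permutation test, p = 0.25, the smallest that 3 libraries allow). That floor holds for each of the 6 pairs of related genes compared, so none could pass 0.05, and the exact permutation p was 0.25 for all 6, also after Benjamini-Hochberg adjustment over them.

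The coding sequences of both adaptors spell 3 PY motifs each, 2 of the form PPxY and 1 of the form LPxY. The proteins translated from the coding transcript with the most codons had 221 and 338 residues and were identical at 61.1% of 221 aligned positions. The Ndfip2 stretch that holds its 3 motifs, at residues 150, 176 and 185 of transcript Ndfip2-206, is shown because these motifs are what NEDD4-family ligases bind. It is read on the plus strand of mm10, chr14:105287719-105292317, with the intron between its exons left out, and capitals mark the motif codons.
Ndfip2 PY stretch: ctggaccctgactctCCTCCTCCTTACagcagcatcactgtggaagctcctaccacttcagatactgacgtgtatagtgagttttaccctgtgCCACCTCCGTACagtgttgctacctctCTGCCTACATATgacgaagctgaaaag

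Itch, a HECT ligase whose T cell substrates include Jun proteins, was the higher of the HECT ligases. Itch (ENSMUSG00000027598.16, chromosome 2, 155133509 to 155226855, plus strand) was at 45.2, 41.4 and 49.3 TPM, from 1394, 1669 and 1392 counts. Nedd4, the founding member of its family (ENSMUSG00000032216.14, chromosome 9, 72662346 to 72749852, plus strand), was at 2.30, 6.62 and 4.06 TPM, from 91, 280 and 87 counts. The ranges of Itch and Nedd4 did not overlap. Itch exceeded Nedd4 by 3.48 ± 0.81 on the log2(TPM + 0.1) scale, 11.1-fold, in 3 of 3 libraries (exact sign-flip permutation test, p = 0.25). Their proteins were identical at 44.2% of 751 aligned positions, and the longest run shared by their transcripts was 14 bases, shorter than the 50 bases that the deposited effective lengths imply for a read. Ndfip1 exceeded the ligase Itch by 3.33 ± 0.17 on the same log2 scale, in 3 of 3 libraries (exact permutation test, p = 0.25).

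The Nedd4 levels in TPM need the counts beside them. Libraries 1 and 3 had nearly the same CPM, 7.74 and 7.92, while library 2 had 20.3. In TPM, library 3 stood well above library 1, since its effective length was 2581 bases against 4377. That length is an average over transcripts, and the short transcript Nedd4-202 was given 0, 8.21 and 6.11 reads in libraries 1, 2 and 3. The full-length Nedd4-201, of 887 codons, held 79.0, 242 and 59.7 reads.

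Among the RING ligases, Cblb led Cbl. Cblb (ENSMUSG00000022637.11, chromosome 16, 52031225 to 52208048, plus strand), which is known for setting the need for CD28 costimulation, was at 30.5, 32.4 and 31.1 TPM, from 1323, 1704 and 1249 counts. Cbl (ENSMUSG00000034342.9, chromosome 9, 44142976 to 44234049, minus strand), which targets receptors and their kinases for degradation, was at 14.9, 15.8 and 13.8 TPM, from 712, 896 and 650 counts. With Ndfip1 these were the steadiest TPM levels of the 10 genes, with SDs of 3.08% of the mean for Cblb, 3.82% for Ndfip1 and 6.52% for Cbl. Cblb exceeded Cbl by 1.07 ± 0.08 on the log2(TPM + 0.1) scale, 2.11-fold, in 3 of 3 libraries (exact permutation test, p = 0.25). The CBL proteins were identical at 56.2% of 878 aligned positions, and the longest run shared by their transcripts was 20 bases. The cysteine and histidine spacing of a RING domain was found at residues 379 to 417 of Cbl, 373 to 411 of Cblb and 277 to 317 of Rnf128.

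Each CBL gene has a cassette exon of 132 bases, 44 codons, that keeps the reading frame. The exons were not aligned, so whether they are counterparts of each other was not tested. The estimated use of each gene's own exon differed between the genes. In Cbl the exon was carried by 69.3%, 68.0% and 72.0% of the TPM of the coding transcripts that span it in libraries 1, 2 and 3. In Cblb it was carried by 29.4%, 20.98% and 17.6%, so the ranges did not overlap. These shares come from a model that splits short reads among transcripts, and they rest on 511 to 654 estimated reads of exon-bearing transcripts for Cbl and 117 to 234 for Cblb. Both exons are printed from the GENCODE M21 transcripts in the direction of transcription, with the exon in capitals and its flanking coding bases in lower case. The Cbl exon is chr9:44158977-44159108 on the minus strand and the Cblb exon chr16:52186349-52186480 on the plus strand of mm10.
Cbl cassette exon: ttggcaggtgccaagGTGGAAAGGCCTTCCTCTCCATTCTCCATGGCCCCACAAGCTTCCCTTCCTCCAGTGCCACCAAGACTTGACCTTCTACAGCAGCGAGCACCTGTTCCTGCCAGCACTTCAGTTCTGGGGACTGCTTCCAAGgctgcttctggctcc
Cblb cassette exon: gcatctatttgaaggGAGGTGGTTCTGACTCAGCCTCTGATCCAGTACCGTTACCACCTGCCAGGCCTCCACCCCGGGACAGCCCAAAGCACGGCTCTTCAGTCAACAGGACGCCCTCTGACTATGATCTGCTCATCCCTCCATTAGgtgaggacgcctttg

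Rnf128, which encodes GRAIL, a transmembrane ligase tied to anergy, was near the limit of detection. Rnf128 (ENSMUSG00000031438.11, chromosome X, 139563316 to 139673145, plus strand) was at 0.78, 1.25 and 1.11 TPM, from 19, 37 and 25 counts. Each count is above 3, the floor that a count of 0 allows. All of its reads were given to Rnf128-201, of 428 codons, and none to the other coding transcript. Cblb exceeded Rnf128 by 4.80 ± 0.28 on the log2(TPM + 0.1) scale, 27.8-fold, in 3 of 3 libraries (exact permutation test, p = 0.25).

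Peli1, a ligase that in T cells acts on the NF-kappaB subunit c-Rel, stood close to Cblb. Peli1 (ENSMUSG00000020134.13, chromosome 11, 21091291 to 21150323, plus strand) was at 37.2, 33.1 and 44.8 TPM, from 1150, 1229 and 1255 counts. Its difference from Cblb was 0.28 ± 0.25 on the log2(TPM + 0.1) scale, 0.29, 0.03 and 0.53 in libraries 1, 2 and 3 (exact permutation test, p = 0.25). Without length adjustment the direction turned, to -0.22, so the order of this pair depends on the length adjustment.

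Stub1, also called CHIP, which ubiquitinates clients of heat shock chaperones and has been tied to the loss of Foxp3 protein under inflammatory signals, ranked second. Stub1 (ENSMUSG00000039615.9, chromosome 17, 25830505 to 25833404, minus strand) was at 60.4, 48.3 and 58.8 TPM, from 726, 725 and 655 counts, with library 2 the lowest. Most of that level was not given to coding transcripts. The coding transcripts of Stub1 held 28.8, 16.4 and 21.2 TPM, 47.8%, 33.9% and 36.1% of the gene. By coding TPM alone, Stub1 fell from rank 2 to rank 6, at 22.2 ± 6.28 TPM, while Ndfip1, Cbl, Vhl, Nedd4 and Rnf128 held the same rank.

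The leading Stub1 transcript, Stub1-206, is annotated as a retained intron and took 45.6%, 55.0% and 53.9% of the gene's TPM. The leading coding transcript, Stub1-204 of 268 codons, took 41.5%, 25.7% and 32.7%, and the 304-codon Stub1-201 took 0.464%, 4.85% and 0%. Relative to Stub1-204, Stub1-206 keeps an intron of 178 bases, chr17:25831366-25831543 on the minus strand of mm10. All 178 bases of that intron also lie under exons of Jmjd8 on the opposite strand, and 1084 of the 2561 exonic bases of Stub1 overlap Jmjd8 exons. Jmjd8 was at 12.7, 9.98 and 10.4 TPM. The strand setting of the counting is not given in the sources used here, and the part of Jmjd8 reads in the Stub1 level was not tested. The deposited posterior SD of the Stub1 count, which measures how surely reads were assigned, was 9.19 to 10.3 reads, the largest of the 10 genes. The intron is printed in the direction of Stub1 transcription, in capitals between exonic bases in lower case, because the split of the gene's level turns on it.
Stub1 retained intron: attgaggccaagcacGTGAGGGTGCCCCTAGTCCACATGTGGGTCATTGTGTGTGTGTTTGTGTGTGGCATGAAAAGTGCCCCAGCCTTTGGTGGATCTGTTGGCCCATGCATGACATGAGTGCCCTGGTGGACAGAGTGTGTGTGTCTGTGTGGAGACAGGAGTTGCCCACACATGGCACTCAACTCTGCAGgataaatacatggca

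Vhl, the von Hippel-Lindau substrate receptor that takes hydroxylated HIF proteins to degradation, was a low member. Vhl (ENSMUSG00000033933.13, chromosome 6, 113623959 to 113631633, plus strand) was at 6.45, 9.52 and 9.18 TPM, from 147, 224 and 167 counts, with library 1 the lowest. Vhl-201, its coding transcript of 181 codons, held 5.80, 7.21 and 7.15 TPM. A short transcript annotated for nonsense-mediated decay, Vhl-204, took 1.40%, 10.5% and 22.0% of the gene's TPM on 0.20, 2.67 and 4.12 reads, so these differences in share rest on few reads.

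The share of the level given to coding transcripts ranged widely among the 10 genes. Averaged over libraries, coding transcripts held 100% of the TPM of Rnf128, 94.1% of Ndfip1, 90.6% of Peli1, 87.1% of Cbl, 81.3% of Vhl, 75.3% of Nedd4, 71.5% of Cblb, 68.6% of Ndfip2, 51.9% of Itch and 39.3% of Stub1. The median over detected protein-coding genes was 86.5%, so 4 of the 10 lay above it. Stub1 was the only one of the 10 under 50%, where 16.1% of detected protein-coding genes lie. The retained-intron share of Stub1, 60.7% ± 7.44 (SD, n = 3), was at the 96.9th percentile of detected protein-coding genes, and that of Itch, 42.8% ± 1.37, at the 92.4th.

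On average, the non-coding part was led by retained-intron transcripts in Itch, Cblb, Stub1, Nedd4, Peli1, Ndfip1 and Cbl. In Itch it was led by Itch-204, at 23.1%, 22.3% and 25.2% of the TPM, which ends 1017 bases inside an early intron of the leading coding transcript Itch-201. Itch-201 took 32.8%, 28.5% and 39.1%. Itch-202, which has 26 exons against 25 and the same number of codons, 864, took 16.6%, 28.1% and 10.7%. Cblb-202, which runs 3456 bases into an intron near the start of the gene, took 24.6%, 26.6% and 30.4% of Cblb. Among the coding transcripts of Cblb, Cblb-201 took 35.3%, 38.5% and 39.9%, and the exon-bearing Cblb-206 took 22.2%, 15.04% and 11.9%. The remaining named Cblb transcript, Cblb-204, averaged 17.2%.

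In Ndfip2 the non-coding part was a processed transcript, Ndfip2-203, at 28.7%, 25.1% and 31.3%, beside the coding Ndfip2-202 at 48.2%, 53.4% and 42.0% and Ndfip2-206 at 20.7%, 19.2% and 22.2%. Ndfip1 was simpler, with 83.5%, 85.5% and 80.3% in Ndfip1-204. Peli1-201 took 85.5%, 81.4% and 78.8% of Peli1. Cbl was divided among Cbl-206, Cbl-211 and Cbl-201, at 32.7%, 26.3% and 25.5% on average. Nedd4-201 averaged 54.7% ± 19.6, Nedd4-202 16.1% ± 14.98 and the retained-intron Nedd4-205 12.2% ± 7.71, on counts too low for a stable split. Short reads share most exons between transcripts, so all these shares are model estimates.

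**Figure D2:**
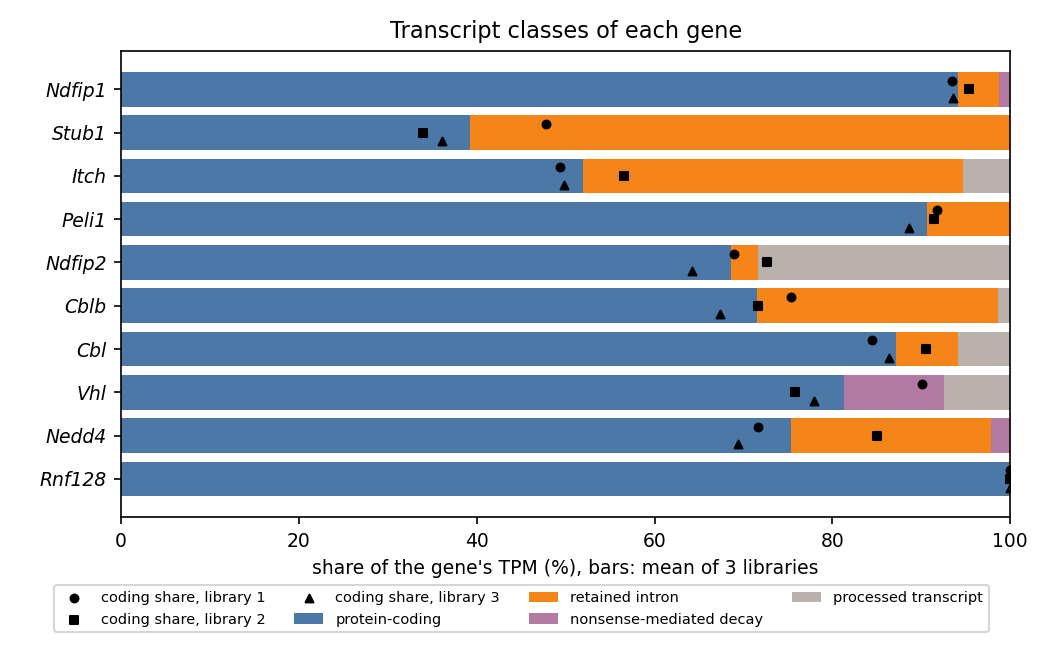
Share of each gene's TPM by GENCODE transcript class in percent; bars are means of the 3 libraries and the black symbols give the protein-coding share in each library. The coding share falls from 100% in Rnf128 and 94.1% in Ndfip1 to 51.9% in Itch and 39.3% in Stub1. On average, retained-intron transcripts make up most of the rest in each gene that has one, except Ndfip2 and Vhl.

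Counts of 6 of the 10 genes differed between the 3 libraries by more than counting noise, in a Poisson chi-square test of homogeneity at a Benjamini-Hochberg adjusted p of 0.05. Over all 13970 genes tested 45.7% were called, so a call by itself sets these genes little apart. Their highest-to-lowest ratio in CPM had a median of 1.23, against 1.26 over all genes tested. Of the 10, only Nedd4 was both called and over 1.5-fold, where 16.9% of all genes tested were. Library 2 was the highest in 4 of the calls (Ndfip1, Ndfip2, Cblb and Nedd4), where 15.5% of all genes tested were called and highest there. Library 3 was the highest for Peli1 and library 1 for Stub1.

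Nedd4 differed the most, at 7.74, 20.3 and 7.92 CPM in libraries 1, 2 and 3, a 2.62-fold range (chi-square test, adjusted p = 2.46e-22). Ndfip2 was also highest in library 2, at 47.2, 67.8 and 47.1 CPM, 1.44-fold (chi-square test, adjusted p = 5.34e-14). In both, library 2 stood alone and the other libraries were nearly equal. Ndfip1 was at 574, 634 and 572 CPM, a 1.11-fold range on the highest counts of the 10 genes (chi-square test, adjusted p = 5.92e-11). Cblb, at 112, 123.5 and 114 CPM, passed narrowly (chi-square test, adjusted p = 0.0410). These 4 genes shared the pattern of a single high library.

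Peli1 went another way, at 97.8, 89.0 and 114 CPM with library 3 the highest, 1.28-fold (chi-square test, adjusted p = 2.88e-08). Stub1 was at 61.7, 52.5 and 59.6 CPM with library 2 the lowest, 1.17-fold (chi-square test, adjusted p = 0.0152). The other 4 genes did not pass the chi-square test: Vhl (adjusted p = 0.0849), Cbl (adjusted p = 0.235), Itch (adjusted p = 0.277) and Rnf128 (adjusted p = 0.279). A p that misses the threshold does not show that their levels were equal, and Rnf128, with at most 37 counts, had a 1.66-fold range.

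**Figure D3:**
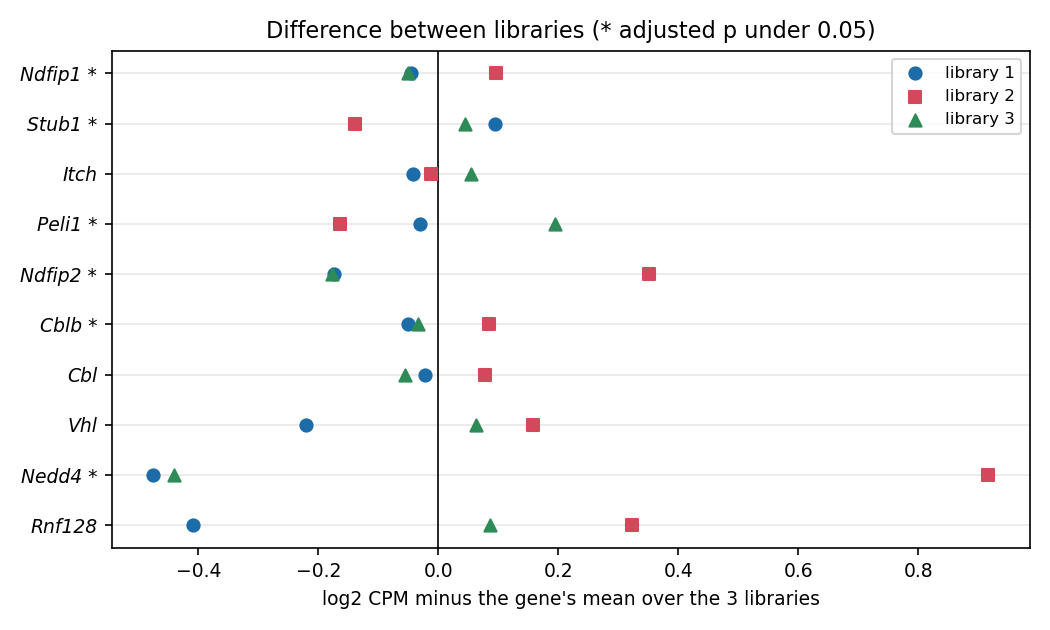
For each gene, log2 CPM in each library minus the gene's mean over the 3 libraries; an asterisk marks an adjusted p under 0.05 in the chi-square test. Nedd4 in library 2 lies 0.92 above its mean and Ndfip2 0.35 above, while Peli1 is highest in library 3 and Stub1 and Peli1 are lowest in library 2.

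Most of these calls rest on library 2. Without it, 1 of the 10 genes was called, where 30.7% of all genes tested were. That gene was Peli1 (chi-square test, adjusted p = 0.000962), and Nedd4, Ndfip2, Ndfip1, Cblb and Stub1 had adjusted p-values of 0.930, 0.979, 0.914, 0.876 and 0.676. In the deposited whole-number counts on an older annotation, 2 of the 9 genes tested were called, where 21.5% of all genes tested were. These were Nedd4, at 41, 140 and 39 counts (chi-square test, adjusted p = 6.52e-13), and Ndfip2, at 163, 282 and 163 counts (adjusted p = 0.000283). For Ndfip1 the whole-number counts turned the direction, with library 2 the lowest at 364 CPM against 386 and 398, and gave no call (chi-square test, adjusted p = 0.228). They held only 15.9% of its estimated count, where the median over all genes was 40.7%.

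Some markers of other cells were, like Nedd4 and Ndfip2, highest in library 2, and others were not. Of the 5 macrophage and monocyte markers, 4 were called and highest in library 2, where 15.5% of all genes tested were. These 4 were Lyz2 at 17, 441 and 123 counts, Csf1r at 15, 93 and 22, Cd68 at 70, 210 and 85, and Adgre1 at 3, 25 and 9. Itgam, the other, was at 34, 34 and 15 counts and was not called. Prf1, a granule gene of cytotoxic cells that activated T cells can also make, was at 154, 627 and 130 counts, a pattern like that of Nedd4. Tyrobp, of the same CD8 T cell and NK cell list, was at 7, 67 and 17. The rest of that list did not share this order. Cd8a, Cd8b1 and Klrb1c were called and highest in library 3, and Ncr1 had too few counts to be tested.

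Of the 8 Treg markers 7 were called, beside 45.7% of all genes tested. Of these calls 4 were lowest in library 2, 2 in library 3 and 1 in library 1. Il2ra, Ctla4, Ikzf2 and Tnfrsf18 were the 4 lowest in library 2, at 183, 144, 1364 and 412 CPM there. Cd4 and Cd3e were lowest in library 3, with Cd3e highest in library 2, and Cd3g was lowest in library 1. The whole-number counts placed these last 3 genes differently. There Cd4, Cd3e and Cd3g were lowest in library 2, at 649, 366 and 356 CPM (chi-square test, adjusted p = 0.00170, 5.52e-05 and 6.47e-05). Foxp3 was lowest in library 2 in the estimated counts, at 17.9 CPM, but was not called. In the whole-number counts it was lowest in library 3, at 54.4 CPM against 54.8 in library 2, again without a call. The B and plasma cell list does not share the low library 2, since 6 of its 7 genes were lowest in library 1 in the estimated counts. The CD8 T cell and NK cell list had 5 of 5 tested genes called, 2 highest in library 2 and 3 in library 3, and all 4 erythroid genes were called and highest in library 3. Of all the markers, only Hba-a2 in library 1 and Pdgfrb in library 3 were at 0 counts. The part of other cells in the higher Nedd4 and Ndfip2 of library 2 was not tested.

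**Figure D4:**
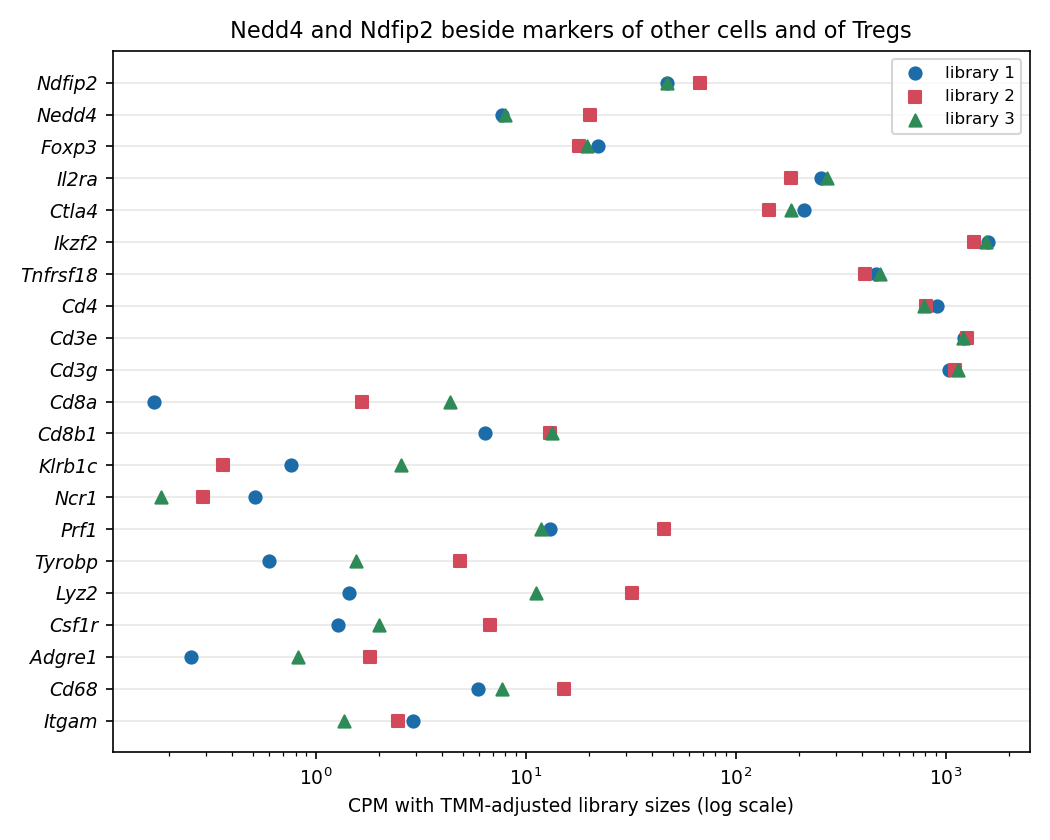
CPM with TMM-adjusted library sizes on a log axis for Ndfip2, Nedd4 and every gene of the lists for Tregs (8), CD8 T cells and NK cells (6), and macrophages and monocytes (5), with 1 symbol per library. Library 2 is the highest for Ndfip2, Nedd4, Prf1, Tyrobp, Lyz2, Csf1r, Adgre1, Cd68 and Cd3e and the lowest for Foxp3, Il2ra, Ctla4, Ikzf2, Tnfrsf18 and Klrb1c.

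The genes whose course over the 3 libraries lay closest to each called gene were sought among 83 genes, the 74 tested genes of the related lists and the other 9 members, by Euclidean distance of centred log2 CPM. With only 3 points per gene this is a description. Ndfip1 and Cblb were near each other, 0.02 apart, followed by the E2 gene Ube2d3 for Ndfip1 and Traf6 for Cblb. For Ndfip2 the closest were Cd247, the zeta chain of the T cell receptor complex, at 0.07, and Egr2 at 0.23. Nedd4 lay nearest to Ndfip2 and Cd247 but far from both, at 0.69 and 0.77. Peli1 was closest to the HECT ligase Smurf2, at 0.03, and to Usp21, at 0.08, and Stub1 to Ube2k and the chaperone partner Bag1, both at 0.06.

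Related genes give the setting of these levels: other ubiquitin pathway genes, and also substrates, chaperones, oxygen pathway genes and transcription factors tied to the members. They were 83 genes in 10 lists, of which 70 were detected. Of the 74 that could be tested, 49 were called, 66.2% beside 45.7% over all genes, and their median CPM range was 1.17-fold beside 1.26-fold. Of the calls, 14, 20 and 15 were highest in libraries 1, 2 and 3, beside 30.7%, 33.9% and 35.4% of the calls over all genes tested. The counts of calls in each list below are to be read beside these shares over all genes.

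Other NEDD4-family HECT ligases, which the NDFIP adaptors can also bind, were detected in 4 of 7 cases. Wwp2 led them at 90.6, 75.6 and 79.1 TPM and so exceeded Itch in each library. Smurf2 was at 9.01 ± 2.10 TPM (SD, n = 3) and Wwp1 at 3.68 ± 0.65, near Nedd4. Hecw1 and Hecw2 stayed under 1 TPM in all libraries. In this list 4 of 6 tested genes were called.

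The relatives of Rnf128, ligases with a protease-associated domain, were not uniformly low. Rnf167 was at 219, 219 and 226 TPM and Rnf13 at 67.2 ± 7.12, both endosomal or lysosomal ligases, and Rnf149 at 11.3 ± 2.19. Rnf133 and Rnf148 were listed at 0 in all libraries, and Rnf150 stayed under 1 TPM. Of 3 tested genes 2 were called.

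Among other RING ligases of T cell tolerance, 4 of 7 were detected and 2 of the 4 tested were called. Dtx1 (Deltex1), a ligase induced in anergic T cells, was at 39.1 ± 6.59 TPM. It was above Cblb in each library, but barely in library 2, at 32.64 against 32.38 TPM. Without length adjustment Dtx1 was below Cblb, at 43.6, 43.8 and 61.0 CPM against 112, 123.5 and 114, so their order depends on that adjustment. Rc3h2 (Roquin-2) was at 21.6 ± 3.10 TPM and Rc3h1 (Roquin-1) at 9.47 ± 0.11. The paralogues Cblc, Peli2 and Peli3 stayed under 1 TPM in all libraries. Peli1 and the pair of Cbl and Cblb were the only genes of their families above that level.

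All 9 E1 and E2 enzymes were detected, and 7 were called. Of these calls 5 were highest in library 1, where 30.7% of the calls over all genes tested were. Ube2d3, an E2 used by many RING ligases, was at 374 ± 24.2 TPM, and Ube2n and Ube2v1, which together build K63 chains, were at 350 ± 21.6 and 346 ± 12.5. Ndfip1 exceeded each of these E2 genes in every library, and the other 9 members were all lower.

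All 9 adaptors that work with CBL proteins were detected and 6 were called. Of these calls 4 were highest in library 2, where 33.9% of the calls over all genes tested were. Sla (SLAP), which links Cbl to the T cell receptor zeta chain, was at 239 ± 25.7 TPM, Ubash3a (STS-2) at 186 ± 7.08 and Sh3kbp1 (CIN85) at 185 ± 11.4, all above Cbl and Cblb in each library. All 11 T cell substrates were detected and 9 were called. Lck was at 1103 ± 88.8 TPM, Cd247 at 251 ± 39.3 and Zap70 at 221 ± 11.5.

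The listed subunits of the VHL complex were all above Vhl, though at unlike levels. Elob and Eloc, the elongin subunits that Vhl binds, were at 599 ± 13.3 and 248 ± 12.8 TPM, and Rbx1, the RING subunit, at 309 ± 11.1. Cul2, the cullin, was lower, at 42.2 ± 1.88 TPM, while Vhl was under 10 TPM in each library. Of this list 3 of 10 were called, beside 45.7% of all genes tested, and these 3 were highest in library 2. Of its genes 9 of 10 were detected. The exception was Egln3, a HIF prolyl hydroxylase, at 1.14, 0.56 and 1.15 TPM.

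The chaperone partners of Stub1 were detected in 6 of 7 cases and called in 5. Hspa8, the constitutive HSC70, was at 2623 ± 347 TPM, Hsp90ab1 at 780 ± 47.1 and Hsp90aa1 at 221 ± 20.7. In the estimated counts these 3 were highest in library 1 and lowest in library 3. Stub1 was also highest in library 1 but lowest in library 2, so its course differed from theirs there. The whole-number counts did not keep this contrast for 2 of the 3. Hspa8 (190, 159 and 199 CPM) and Hsp90ab1 (1255, 1105 and 1257) were then lowest in library 2, as was Stub1 (161, 137 and 157). Hsp90aa1 stayed lowest in library 3 (126, 113 and 108). Those counts held only 1.37% of the estimated Hspa8 count. The stress-inducible Hspa1b was at 1.47, 0.64 and 2.03 TPM. Reads of Hspa1b can be shared with its near copy Hspa1a, which makes both levels uncertain.

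Among deubiquitinases, enzymes that remove ubiquitin, 11 of 12 were detected and 8 of the 11 tested were called. Otub1 was at 127 ± 4.59 TPM, Usp15 at 122.7 ± 15.8 and Usp4 at 76.0 ± 7.66, and Usp44 stayed under 1 TPM in all libraries. The NFAT and EGR factors that are known to drive anergy genes, Cblb and Rnf128 among them, were all detected, 4 of 4. Nfatc1 was at 80.7 ± 6.06 TPM, Egr2 at 45.9, 54.8 and 49.4 TPM in libraries 1, 2 and 3 and Nfatc2 at 17.3 ± 1.10. These 3 genes were called, each with library 1 the lowest and library 2 the highest.

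**Figure D5:**
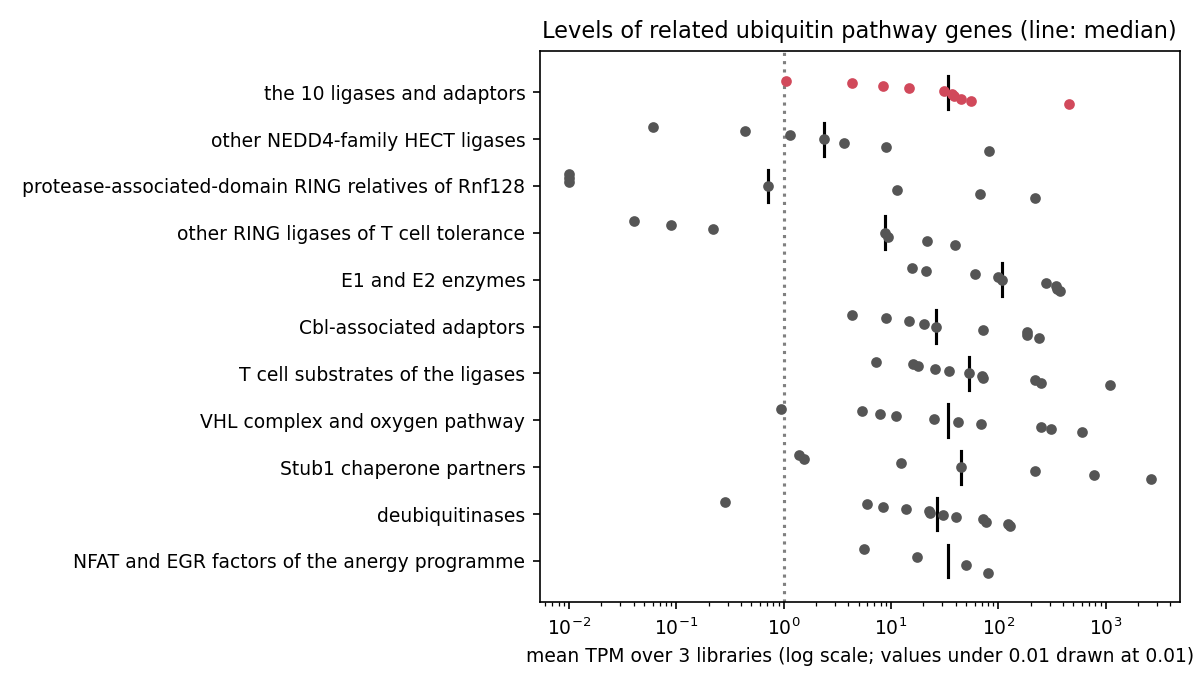
Mean TPM over 3 libraries of the 10 ligases and adaptors and of the genes in 10 related lists, on a log axis; each point is a gene, black lines are list medians, the dotted line marks 1 TPM, and means under 0.01 TPM are drawn at 0.01. The E1 and E2 list has the highest median, 107 TPM, and the Rnf128 relatives the lowest, 0.72 TPM.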

How the data were processed

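Polyadenylated RNA was measured in 3 technical-replicate libraries of 1 biological replicate. The tables of estimated counts per gene and transcript have RSEM's columns, per the file headers, and rest on mm10 and GENCODE M21, per the deposited descriptions. TPM, the authors' length-adjusted level, spans all 81881 entries, per the file headers. The posterior SD, a signal in reads, is as deposited. The percent of a gene's TPM per transcript was computed from the deposited transcript TPM. A further table of whole-number counts uses GENCODE M4, per the deposited descriptions. For the aligner, its version and the strand setting, the sources used here give nothing.

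The 26345 entries that are not GENCODE genes held at most 0.286% of counts and entered no test. Estimated counts were rounded. Since edgeR's quasi-likelihood test needs at least a second group, it was not run. A Poisson chi-square test of homogeneity used TMM-adjusted library sizes (edgeR 4.0.16, R 4.3.3), genes whose count averaged 10 or more, and Benjamini-Hochberg adjustment over all of them. It treats reads as independent and covers counting error only. It was tried on simulated Poisson counts, which hold no spread beyond counting noise apart from the genes changed on purpose. That trial therefore does not show how the test behaves under further spread or with estimated counts. DESeq2 1.42.0 size factors were an alternative. The pseudocount was 0.1. No protein table was at hand, so motifs and identities were computed from translated GENCODE coding sequences. The members and lists were chosen with earlier results of these data known. Named genes are all members, the 3 highest of each related list, those under 1 TPM in all libraries, the 2 nearest profiles of each called member, markers given beside a result, and transcripts with 10% or more of a member's TPM. Adgre1, Itgam, Jmjd8, Hba-a2, Pdgfrb, Rnf149, Egln3, Hspa1b and Cul2 were also named after their values were seen.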

Additional observations from a re-analysis of the deposited data

How the results depend on the processing

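The number of members called was 6 in the main test and 6, 6, 5 and 6 with DESeq2 size factors, total counts, no filter on low counts, and the posterior SD added to the variance. It was 2 with the whole-number counts, which hold fewer reads and fewer tested genes, and it was 5, 1 and 4 without libraries 1, 2 and 3. Over all genes tested, 45.7% were called in the main test, 45.7%, 46.1%, 21.1% and 40.7% under the first 4 alternatives, 21.5% with the whole-number counts, and 33.8%, 30.7% and 21.3% without libraries 1, 2 and 3. In numbers, 6388 of 13970 were called, against 2157 of 10013 with the whole-number counts and 2978 of 13964 without library 3. Cblb lost its call with total counts (adjusted p = 0.193), without the filter (adjusted p = 0.0755) and when any 1 of the 3 libraries was left out, and Itch gained one with total counts (chi-square test, adjusted p = 0.0199). Peli1 lost its call without library 3 (adjusted p = 0.0834). With the whole-number counts, Ndfip1 in library 2 reversed against the other libraries, from 0.14 to -0.11 on the log2 scale. Of the 6 pairs, Peli1 minus Cblb reversed, to -0.22 without length adjustment and -0.94 with the whole-number counts, which are not adjusted for length either; the other 5 kept their direction under all alternatives run. Coding transcripts alone moved the levels of Stub1, Itch, Cblb, Ndfip2, Ndfip1 and Cbl by more than their SD. No paired analysis was possible because there is 1 group. The depth limits Rnf128, Nedd4 and Vhl most.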
